A study of Homo sapiens with 9 samples.

Results

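The classical cadherins and the catenins that bind their tails were taken as 10 genes, chosen by symbol: the cadherins CDH1, CDH3, CDH2, CDH4, CDH6 and CDH11, and the catenins CTNNA1, CTNNB1, CTNND1 and CTNND2. All 10 were found among the 58676 genes of the count table. 9 of them passed the filter on low counts and were tested among 15975 genes. CDH11 did not pass, since it had 0 counts in every library.

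Classical cadherins are calcium-dependent adhesion proteins that bind the same or a related cadherin on the neighbouring cell and so hold epithelial sheets together at adherens junctions. Their cytoplasmic tails bind p120-catenin and beta-catenin, and beta-catenin binds alpha-catenin, which links the complex to actin. The exchange of E-cadherin for N-cadherin is a much used sign of the epithelial-mesenchymal transition (EMT), and beta-catenin that is not held at junctions or degraded can act in the nucleus with TCF and LEF factors.

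RNA was sequenced from the human cancer cell line OVCA433, which derives from an ovarian serous adenocarcinoma and was grown with fetal bovine serum. There were 9 libraries in 3 groups of 3 (A, B and C): cells with a control vector, labelled wild type, and cells with shRNA#1-MPZL3 or shRNA#3-MPZL3 (hairpin 1 and hairpin 3), both labelled as MPZL3 knockdown. MPZL3 encodes an immunoglobulin-domain membrane protein, and the study knocked it down to ask what follows for the state of these cells. All groups received lentiviral plasmids of the pLKO.1 type, and the study's methods call the replicates biological. For this line the methods speak of an empty vector in one place and list both a scrambled hairpin and a control shRNA plasmid in another, so what the control vector expresses is uncertain. Each result below is from bulk RNA, in which fewer cells of a type and less RNA per cell cannot be told apart.

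Library totals lay between 16850854 and 23890191 counts. MPZL3 itself was at 322, 440 and 440 counts in control, 40, 39 and 42 with hairpin 1 and 33, 18 and 39 with hairpin 3. After scaling to CPM (reads per 1000000 counts, with edgeR's TMM factors) the control mean was 19.5 ± 3.42 (SD, n = 3), and hairpin 1 and hairpin 3 stood at 1.89 ± 0.0926 and 1.58 ± 0.514 CPM. MPZL3 was thus lower in each knockdown library than in any control library. Of 12 ovarian epithelial markers, WT1 was at 0 in all libraries, while KRT8, KRT18, KRT7 and PAX8 were abundant in all of them. The 12 together summed to 11640 to 14610 CPM in control, 5405 to 6913 with hairpin 1 and 5378 to 6064 with hairpin 3. Of the 11 tested, 7 were called lower and 1, PAX8, higher in the pooled comparison. KRT8 and KRT18 were among the 7, with pooled log2 fold changes of -1.18 and -1.41. The falls of KRT19 (-3.82), CLDN3 (-4.39), EPCAM (-5.81) and CLDN4 (-6.41) were larger. MUC16, the last of the 7, had 197 counts over the control libraries and none under either hairpin. The other 3, KRT7 among them, were not called.

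Knockdown of MPZL3 was accompanied by the loss of both abundant epithelial cadherins and by a rise of N-cadherin, whereas alpha- and beta-catenin stayed close to control. Between the pooled knockdown libraries (both hairpins, n = 6) and control (n = 3), 6 of the 9 tested genes were called changed, which required an adjusted p under 0.05 together with a log2 change of 1 or more in either direction. CDH2 and CDH6 rose, and CDH1, CDH3, CTNND1 and CTNND2 fell. The call of CDH6 rested on hairpin 1 and was lost, with the direction kept, when any 1 control library was left out. Over all tested genes 14.7% were called, 7.26% higher and 7.4% lower. By adjusted p alone, 7 of the 9 passed, against 33% of all tested genes. The median absolute log2 fold change of all tested genes was 0.3. The plot of levels by library shows that in CDH1, CDH3, CDH2, CTNNB1, CTNND1 and CTNND2 no knockdown library overlapped any control library. How many of all tested genes separate in this way was not counted.

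**Figure D1:**
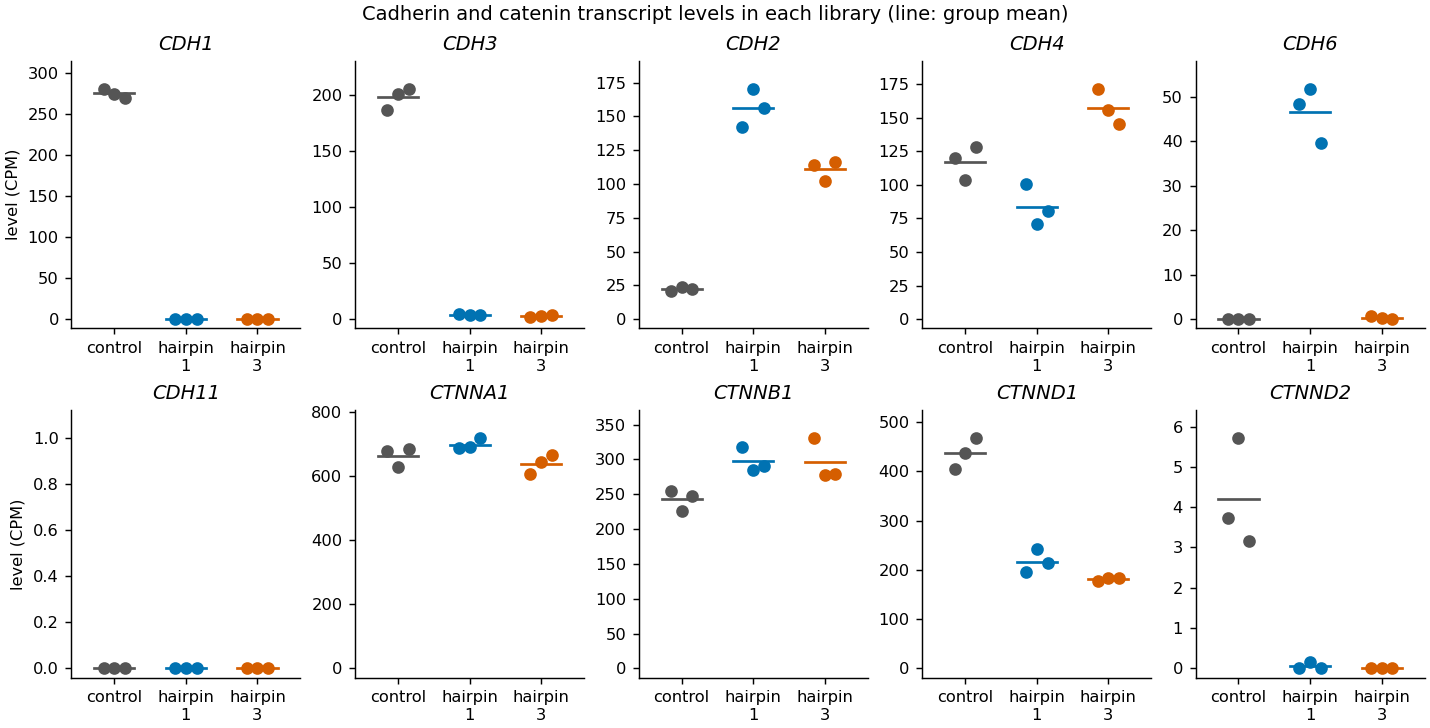
Transcript level (CPM, linear axis, own scale for each gene) of the 10 genes in the 9 libraries, with points for libraries and lines for group means (n = 3). CDH1 and CDH3 were near 0 in all 6 knockdown libraries, CDH6 was high with hairpin 1 alone, CDH4 was lowest with hairpin 1 and highest with hairpin 3, and CDH11 was at 0 throughout.

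CDH1 (ENSG00000039068, chr16:68737225-68835548, plus strand, hg38) encodes E-cadherin, the main cadherin of epithelial junctions. It had 5802, 5526 and 5650 counts in control libraries A, B and C. With hairpin 1 it had 1, 4 and 2 counts, and with hairpin 3 it had 6, 0 and 2. Thus, 7 and 8 counts were left in the 3 libraries of each hairpin, against 16978 in control. The control level was 2532-fold that of hairpin 1 (95% counting interval 1229 to 6299) and 1960-fold that of hairpin 3 (994.3 to 4540). These intervals cover counting error only and leave out the spread between replicate libraries. They also treat reads as independent molecules, which reads copied by PCR are not. The pooled log2 fold change was -11.05 (SE 0.247, edgeR quasi-likelihood test with Benjamini-Hochberg adjustment, adjusted p = 7.834e-11). Hairpin 3 and hairpin 1 were not shown to differ (ratio 1.29, counting interval 0.4094 to 4.19; edgeR adjusted p = 0.8457), and at so few counts that interval is wide. Without hairpin 3 replicate A, which holds 6 of the 8 counts, the fitted difference between the hairpins turned from 0.35 to -1.03.

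CDH3 (ENSG00000062038, chr16:68636189-68722616, plus strand) encodes P-cadherin, a close relative of E-cadherin found mainly in basal and glandular epithelia. The gene lies next to CDH1, 14608 bases upstream of it on the same strand. Its counts were 3854, 4037 and 4298 in control, 94, 83 and 87 with hairpin 1 and 35, 46 and 74 with hairpin 3. Unlike CDH1, CDH3 kept a measurable remnant in all 6 knockdown libraries, at 4.12 ± 0.344 CPM with hairpin 1 and 2.66 ± 0.684 CPM with hairpin 3 against 197.6 ± 9.8 CPM in control. That is 2.08% and 1.35% of the control level. The pooled log2 fold change was -5.85 (SE 0.177, edgeR adjusted p = 6.505e-10). All 3 hairpin 3 libraries lay below all 3 hairpin 1 libraries, and the hairpins differed by a log2 value of -0.61 (SE 0.168, edgeR adjusted p = 0.03294), which is under the fold threshold. That adjusted p ranged from 0.008764 to 0.133 over the alternatives of scaling, filter, model and left-out library.

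The fall of CDH1 and CDH3 was not shared by the genes around them. Among the 50 nearest tested genes (25 on each side, mean level 10 CPM or more), the median log2 fold change around CDH1 was 0.07 with each hairpin. None of the 50 fell as far as CDH1 (0 genes), and around CDH3 there was 1, which was CDH1 itself. CDH11 lies on the same chromosome (ENSG00000140937, chr16:64943753-65126112, minus strand). It encodes the type II cadherin OB-cadherin, which is typical of fibroblasts and osteoblasts. With 0 counts in all 9 libraries, each library allows a CDH11 level of up to 0.129 to 0.177 CPM (3 counts of the total), so no rise of it was detectable at this depth. Other fibroblast markers mostly rose, but not all of them. The 10 genes of that list summed to 32.6 to 34.3 CPM in control. Under hairpin 1 the sum was 109.9 to 447.3 CPM and under hairpin 3 it was 582.6 to 953.3 CPM, mostly COL1A1. Of the 6 tested, 5 were called higher with each hairpin. Over all tested genes 7.76% were called higher with hairpin 1 and 7.46% with hairpin 3. PDPN parted between the hairpins, with log2 fold changes of -5.47 for hairpin 1 (called lower) and 2.63 for hairpin 3 (called higher). FAP, which was not tested, fell from 34 counts over the control libraries to 22 (hairpin 1) and 7 (hairpin 3). DCN was at 0 in all libraries. The part of fibroblasts in the cadherin levels was not tested.

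CDH2 (ENSG00000170558, chr18:27950966-28177446, minus strand) encodes N-cadherin, the cadherin of neural and mesenchymal cells. It had 429, 482 and 475 counts in control, 3036, 3350 and 3650 with hairpin 1 and 1936, 1866 and 2518 with hairpin 3. It was thus already expressed in control cells, and its lowest knockdown library stood at 102.4 CPM against 24 CPM in the highest control library. Relative to control the level was 6.95-fold with hairpin 1 and 4.92-fold with hairpin 3. The pooled log2 fold change was 2.57 (SE 0.177, edgeR adjusted p = 4.767e-07), higher in 6 of 6 knockdown libraries. Hairpin 1 libraries (141.9 to 170.4 CPM) all lay above hairpin 3 libraries (102.4 to 115.9 CPM), and the hairpins differed by -0.50 on the log2 scale, hairpin 3 minus hairpin 1 (SE 0.0996, edgeR adjusted p = 0.005664). The 50 neighbours of CDH2 had medians of 0.04 with hairpin 1 and -0.07 with hairpin 3. The antisense gene AC015933.2, which overlaps CDH2 and whose reads cannot be separated by strand in these non-directional libraries, had 4 to 15 counts per library.

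CDH4 (ENSG00000179242, chr20:61252426-61940617, plus strand) encodes R-cadherin, first known from the retina and the closest relative of N-cadherin among these genes. Counts in control were 2483, 2081 and 2683. They were 2146, 1390 and 1873 with hairpin 1, and 2915, 2838 and 3149 with hairpin 3. After scaling, all 3 hairpin 1 libraries (70.7 to 100.3 CPM) lay below and all 3 hairpin 3 libraries (144.9 to 171.5 CPM) above the control libraries (103.6 to 128.2 CPM). The log2 fold change was -0.49 with hairpin 1 (SE 0.131, edgeR adjusted p = 0.009825) and 0.42 with hairpin 3 (SE 0.13, edgeR adjusted p = 0.02193, range over alternatives 0.001178 to 0.1107). Both were under the fold threshold. As the directions were opposite, the pooled value was 0.04 (95% interval -0.52 to 0.60), which says nothing of either hairpin. The direct difference, hairpin 3 minus hairpin 1, was 0.91 (SE 0.131, edgeR adjusted p = 0.0005879), and it reached 1.05, past the fold threshold, without hairpin 1 replicate A. Genes around CDH4 moved with it in part: the median of its 50 neighbours was -0.36 with hairpin 1, 0 with hairpin 3 and 0.31 between the hairpins, with 94% of them higher with hairpin 3. Relative to these neighbours CDH4 was at 0.22, -0.31 and -0.23 in the hairpin 1 libraries and at 0.56, 0.43 and 0.29 in the hairpin 3 libraries, on the log2(CPM + 0.5) scale.

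CDH6 (ENSG00000113361, chr5:31193750-31329146, plus strand) encodes K-cadherin, a type II cadherin of the developing kidney that is also found in ovarian and renal carcinomas. It was the cadherin that differed most between the hairpins. With hairpin 1 it had 1037, 1019 and 922 counts, whereas control libraries had 3, 0 and 1 and hairpin 3 libraries had 11, 7 and 0. The level with hairpin 1, 46.6 ± 6.36 CPM, was 713-fold that of control (counting interval 278.2 to 2619) and 146-fold that of hairpin 3 (92.4 to 247.3). The hairpins differed by -7.16 on the log2 scale (SE 0.395, edgeR adjusted p = 2.043e-07), hairpin 3 being lower. The pooled comparison also called CDH6 (edgeR adjusted p = 0.02433), but the call rested on hairpin 1 and was lost with control replicate A, B or C left out (adjusted p = 0.07359, 0.09164 and 0.08735 in edgeR). With hairpin 3 alone CDH6 did not pass (18 counts against 4, ratio 4.87, counting interval 1.605 to 19.8; edgeR adjusted p = 0.1149). It did pass there with no filter on low counts (edgeR adjusted p = 0.007115) or without hairpin 3 replicate C (edgeR adjusted p = 0.006601). The median log2 value of its 50 neighbours was 0.54 with hairpin 1, -0.17 with hairpin 3 and -0.75 between the hairpins, and 0 of the 50 differed between the hairpins by as much as CDH6.

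Promoter sequences were read from RefSeq's promoter table (GRCh38.p14), in order to show the DNA upstream of an R-cadherin gene that parted between the hairpins and of a delta-catenin gene that fell. The table matched 5 of the 10 genes (CDH2, CDH4, CTNNA1, CTNNB1 and CTNND2). CDH1, CDH3, CDH6, CDH11 and CTNND1 were not matched. Each line gives the 250 bases before the first listed start, 5′ to 3′ on the gene's own strand, with E-boxes (CANNTG, which is the same pattern on both strands) in capitals. ZEB, SNAIL and TWIST factors bind some forms of this pattern and not every E-box.
CDH4, chr20:61499171-61499420, plus strand: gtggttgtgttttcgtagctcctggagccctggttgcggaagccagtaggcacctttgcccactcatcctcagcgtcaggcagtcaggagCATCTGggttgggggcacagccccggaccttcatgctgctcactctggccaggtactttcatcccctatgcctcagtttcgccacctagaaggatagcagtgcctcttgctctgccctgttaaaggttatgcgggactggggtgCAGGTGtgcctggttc
CTNND2, chr5:11904447-11904696, minus strand: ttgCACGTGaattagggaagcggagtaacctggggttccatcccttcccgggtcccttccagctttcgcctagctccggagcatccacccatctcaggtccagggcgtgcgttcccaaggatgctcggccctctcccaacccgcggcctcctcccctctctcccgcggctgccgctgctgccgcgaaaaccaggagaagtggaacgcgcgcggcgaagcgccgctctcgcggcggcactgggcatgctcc
The CDH4 window held 2 E-boxes, the nearer of which starts 16 bases before the listed start and reads CAGGTG, the form best known from ZEB and SNAIL sites. This start lies inside the CDH4 gene as the count table gives it. The CTNND2 window held 1 E-box, which starts 247 bases before the start and reads CACGTG. It held 0 of the forms CACCTG or CAGGTG. The corresponding CDH2 window (chr18:28177131-28177380, minus strand), which lies inside the CDH2 gene as the count table gives it, held 0. Of all 35114 windows of this length, 61.8% held a CANNTG and 17.5% held CACCTG or CAGGTG, so such a match is common and only describes these letters.

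Levels of different genes were compared per length, as CPM per kb of the gene length in the count table. The 6 cadherins together stood at 96.8 ± 1.66 CPM per kb in control, 47.4 ± 1.37 with hairpin 1 and 44.3 ± 2.3 with hairpin 3. Knockdown sums were thus 49.0% and 45.7% of control, with no overlap between knockdown and control libraries. In control, CDH1 made up 46.1% ± 1.6 of the sum, CDH3 32.7% ± 1.36, CDH4 16.5% ± 1.55 and CDH2 4.70% ± 0.349. With hairpin 1 the order was CDH2 at 66.5% ± 4.86, CDH4 at 24.1% ± 4.73, CDH6 at 7.93% ± 0.906 and CDH3 at 1.39% ± 0.105. With hairpin 3, CDH2 at 50.6% ± 2.63 and CDH4 at 48.4% ± 2.8 made up nearly all of the sum, and their ranges over libraries (48.9% to 53.6% and 45.1% to 50.1%) overlapped. In absolute terms the gain of CDH2, which had 4.54 ± 0.327 CPM per kb in control and reached 31.6 ± 2.88 and 22.4 ± 1.48 with the hairpins, was smaller than the loss of CDH1 and CDH3 together, which stood at 44.6 ± 0.888 and 31.7 ± 1.57 CPM per kb in control.

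**Figure D2:**
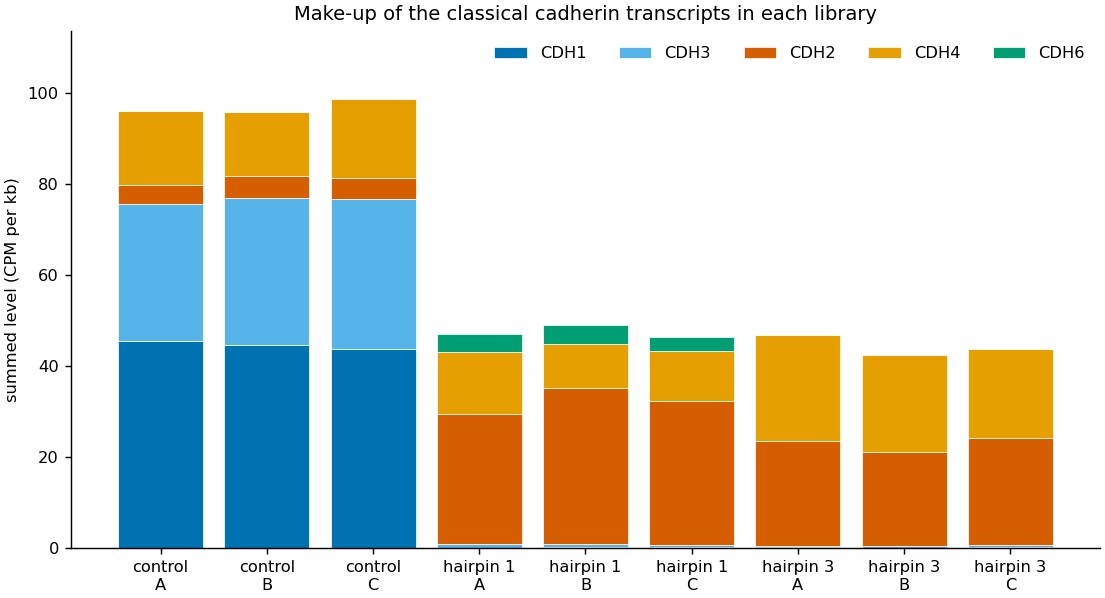
Summed level of the cadherin transcripts (CPM per kb, linear axis from 0) in each of the 9 libraries, stacked by gene. Control bars, near 97, consist mainly of CDH1 and CDH3, and knockdown bars, between 42.3 and 49, of CDH2 and CDH4, with CDH6 visible only with hairpin 1.

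CTNNA1 (ENSG00000044115, chr5:138610967-138935034, plus strand) encodes alpha-E-catenin, the actin link of the complex, and was the most abundant of the 10 genes per length in every group (75.0 ± 3.6 CPM per kb in control). In CPM it was at 677.1, 625.9 and 684.1 in control, 685, 688.1 and 718 with hairpin 1, and 605.6, 644.2 and 663.2 with hairpin 3. All 3 hairpin 1 libraries lay just above the highest control library, and 1 hairpin 3 library lay below the lowest. The pooled log2 fold change was 0.01 (95% interval -0.17 to 0.19, edgeR adjusted p = 0.9375).

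CTNNB1 (ENSG00000168036, chr3:41194837-41260096, plus strand) encodes beta-catenin. Its levels were 254.6, 226.3 and 247.6 CPM in control, 318.3, 285.4 and 291.2 with hairpin 1, and 331, 278.1 and 279 with hairpin 3. Although all 6 knockdown libraries lay above all control libraries, the difference was small: the pooled log2 fold change was 0.29 (SE 0.0893, 95% interval 0.1 to 0.49, edgeR adjusted p = 0.02582), under the fold threshold. Its adjusted p ranged from 0.004582 to 0.1411 over the alternatives. The hairpins were not shown to differ (-0.01, 95% interval -0.23 to 0.21). ULK4, which overlaps CTNNB1 on the other strand, had 24 to 53 counts per library.

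CTNND1 (ENSG00000198561, chr11:57753243-57819546, plus strand) encodes p120-catenin, which binds the cadherin tail close to the membrane and slows the removal of cadherins from the cell surface. It stood at 405, 436.2 and 467.9 CPM in control, 195.1, 241.4 and 213 with hairpin 1, and 176.4, 182.8 and 184.3 with hairpin 3. All 6 knockdown libraries were thus well below control, at 49.6% of its mean with hairpin 1 and 41.5% with hairpin 3. The pooled log2 fold change was -1.13 (SE 0.106, edgeR adjusted p = 6.505e-06). With hairpin 1 it was -1.01, only just past the fold threshold, and leaving out control replicate C gave -0.96 and leaving out hairpin 1 replicate A gave -0.94, both under that threshold. With hairpin 3 it was -1.27 (SE 0.103, edgeR adjusted p = 5.589e-07). Its neighbours on chromosome 11 had a median of -0.22 with each hairpin, and with 10 genes on each side -0.35 and -0.38. Of its 50 neighbours, 4 fell as far as CTNND1 with hairpin 1 and 2 with hairpin 3. The read-through gene TMX2-CTNND1, which shares its exons, had 0 counts in all libraries.

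CTNND2 (ENSG00000169862, chr5:10971840-11904043, minus strand) encodes delta-catenin, a relative of p120-catenin best known from neurons. It was the least abundant catenin, with 77, 115 and 66 counts in control. With hairpin 1 it had 0, 3 and 0 counts, and with hairpin 3 it had 0 in all 3 libraries. The control level was 89.8-fold that of hairpin 1 (counting interval 30.4 to 438.2). Against hairpin 3 it was 79.4-fold if 3 counts over the group are put in place of 0. The 95% counting interval for hairpin 3 begins at 64.1. CTNND2 was called lower in the pooled comparison (edgeR adjusted p = 2.938e-06) and with each hairpin (edgeR adjusted p = 1.461e-05 and 1.175e-05), and its fitted fold changes depend on the prior count. Its 50 neighbours, which overlap those of CDH6, had medians of 0.44 with hairpin 1 and -0.26 with hairpin 3, so its fall with hairpin 1 ran against its surroundings. Per length, the 4 catenins summed to 161.9 ± 6.53 CPM per kb in control, 148.7 ± 0.846 with hairpin 1 and 137.6 ± 1.56 with hairpin 3. Catenin and cadherin sums had a ratio of 1.67 ± 0.0427 in control, 3.14 ± 0.0969 with hairpin 1 and 3.11 ± 0.131 with hairpin 3. These sums and ratios leave out JUP (plakoglobin), which fell with both hairpins and is described below with the catenin relatives.

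Taken by hairpin, 6 of the 9 tested genes were called with hairpin 1, 2 higher and 4 lower, where 16.3% of all tested genes were called (7.76% higher, 8.55% lower). By adjusted p alone it was 8 of the 9, against 37.8% of all. With hairpin 3, 5 were called, 1 higher and 4 lower, where the share over all genes was 15.3% (7.46% higher, 7.83% lower), and 7 passed by adjusted p alone, against 34.7%. Both comparisons share the control libraries. CDH1, CDH3, CTNND1 and CTNND2 fell and CDH2 rose in each, and CDH6 rose with hairpin 1. In the direct comparison of hairpin 3 with hairpin 1, 1 gene, CDH6, was called, lower with hairpin 3, where 3.93% of all tested genes were called (1.72% lower). By adjusted p alone this comparison passed 4 of the 9 (CDH3, CDH2, CDH4 and CDH6), against 11.6% of all tested genes. Among the catenins the difference with the lowest adjusted p was that of CTNND1, at -0.26 (95% interval -0.48 to -0.04, edgeR adjusted p = 0.1314, range over alternatives 0.02184 to 0.3494). Which genes pass by adjusted p alone therefore changed with the alternatives, and cadherins were not tested against catenins.

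**Figure D3:**
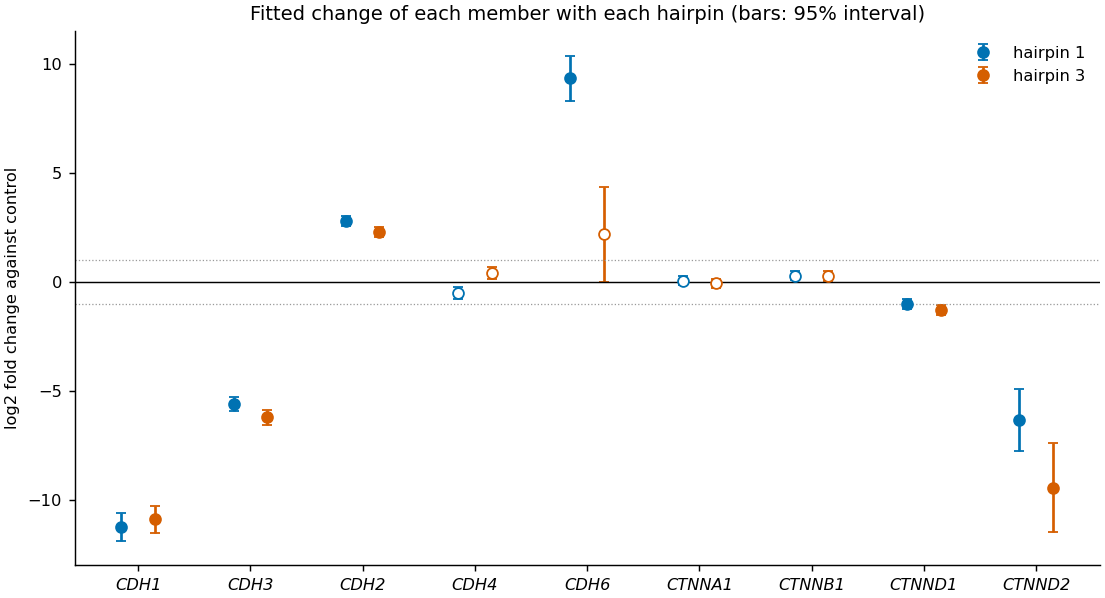
Fitted log2 fold change against control for the 9 tested genes with hairpin 1 and hairpin 3, with 95% intervals (filled: called, open: not called, dotted lines: fold threshold of 1). CDH4 lies on opposite sides of 0 (-0.49 and 0.42), CDH6 is far from 0 with hairpin 1, and fitted values of CTNND2 and CDH6, which have groups at 0 to 3 counts, depend on the prior count.

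**Figure D4:**
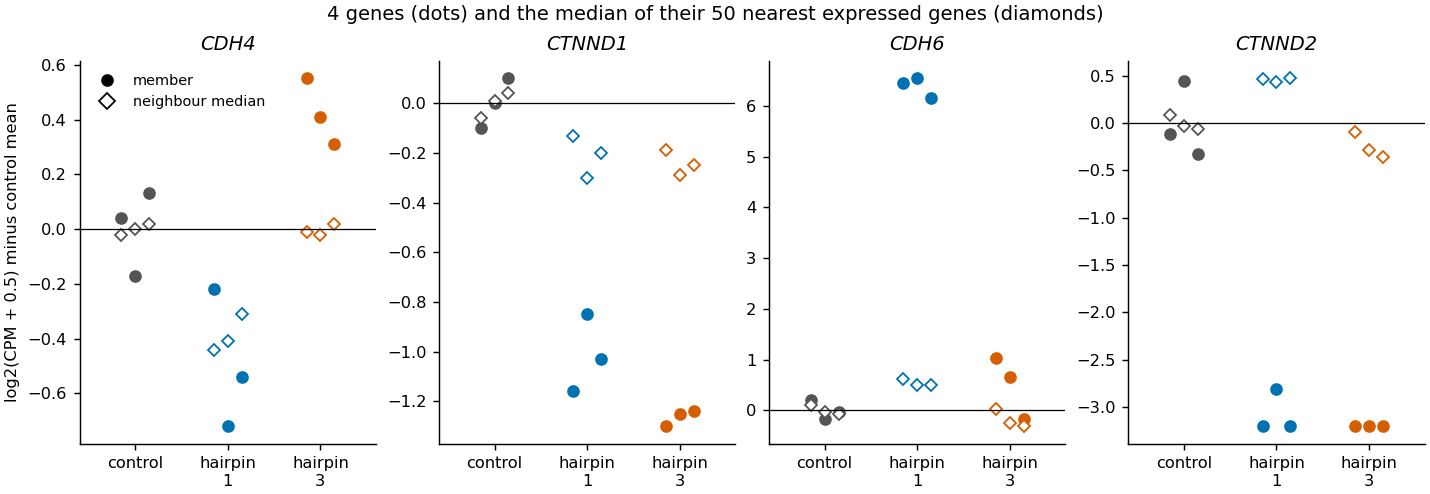
Level relative to the control mean, as log2(CPM + 0.5), of CDH4, CTNND1, CDH6 and CTNND2 (dots, 1 per library) and the median of the 50 nearest tested genes of 10 CPM or more (diamonds). CDH4 and its neighbours are both low with hairpin 1. CTNND1 and CTNND2 lie below theirs in all 6 knockdown libraries, and CDH6 lies above its neighbours with hairpin 1.

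Genes with the most similar profile to each called gene were sought over the 9 libraries by Pearson r of log2(CPM + 0.5) among 9692 other genes, or 9693 for CTNND2, as a description that the split between control and knockdown dominates. For CDH1 they were ST14, LAD1 and MIR205HG (r = 0.9989 to 0.9994), and 70 genes exceeded 0.99. CDH3 was nearest to EHF, SLC44A3 and WFDC2 (51 genes over 0.99), and CDH2 to NNMT, FSCN1 and SLIT3 (r = 0.9955 to 0.9961, 17 genes over 0.99). CDH6 had 0 genes over 0.99, and its nearest, BASP1, SKP2 and CMBL (r = 0.9721 to 0.9819), all lie on chromosome 5 as CDH6 does. CTNND1 was nearest to NEDD9, DYNLT3 and HOOK2 (12 genes over 0.99) and CTNND2 to MST1R, ASAH1 and MYCN (7 genes). Of the 6 called genes, CDH6 alone had no gene over 0.99.

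The transcription factors that act on E-cadherin moved in both directions. Of 10 listed repressors of CDH1, 9 were tested, 7 were called higher and 0 lower in the pooled comparison (median log2 fold change 2.10, against 0.005 over all tested genes). Over all tested genes 7.26% were called higher there and 7.4% lower. ZEB1 and ZEB2, zinc finger repressors of epithelial genes, rose by 3.40 (SE 0.134) and 3.48 (SE 0.156), from 3.92 and 2.69 CPM in control. SNAI1 rose by 3.11 (SE 0.331), TCF4 by 2.22 (SE 0.16) and TWIST1 by 1.26 (SE 0.122). SNAI2, in contrast, was at 31.2 CPM with hairpin 1 and 34.0 CPM with hairpin 3 beside 32.3 CPM in control (pooled log2 value 0.01, edgeR adjusted p = 0.9375). Of 13 listed activators of CDH1, 12 were tested, 10 were called lower and 0 higher (median -4.45). GRHL2, a grainyhead factor that keeps epithelial enhancers open, went from 111.8 CPM in control to 0 counts with hairpin 1 and 15 counts with hairpin 3, and OVOL1 from 806 counts in control to 1 and 0. EHF had 3507 counts in control and 7 and 1 with the hairpins, and OVOL2, which represses ZEB1, had 1106, 7 and 16. Between the hairpins 0 of the 9 tested repressors were called by edgeR or DESeq2, and 0 had an unadjusted p under 0.05. Of the 12 tested activators 2 were called between the hairpins, where 3.93% of all tested genes were called, and 6 had an unadjusted p under 0.05. GRHL2 was higher with hairpin 3, on 15 counts against 0, with 10 of the 15 in 1 library. TFAP2C was lower with hairpin 3 (log2 difference -1.44). The share of all tested genes with an unadjusted p under 0.05 was not counted.

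Other cadherins and junction genes were examined by list, and their counts are to be read against the 14.7% of all tested genes called in the pooled comparison. Of 16 other cadherins 5 were tested, 2 were called higher and 1 lower. CDH5, the cadherin of endothelial cells, rose from 6 counts over the control libraries to 150 with hairpin 1 and 217 with hairpin 3, while the endothelial markers ERG and EMCN had at most 1 count in any group. The endothelial receptor KDR was called higher as well, its counts being 18 over the control libraries against 164 (hairpin 1) and 97 (hairpin 3). The 8 endothelial markers, CDH5 and KDR among them, summed to 1.045 to 1.695 CPM in control, 4.953 to 7.417 with hairpin 1 and 6.2 to 8.562 with hairpin 3, and their part in the CDH5 value was not tested. Of the type II cadherins of the nervous system, CDH10 rose by 1.30 (SE 0.257) and CDH7 fell by 3.47 (SE 0.539) from 60 counts in control. CDH10, on chromosome 5 like CDH6, was called with hairpin 1 (1.62) and not with hairpin 3 (0.88). Its difference, hairpin 3 minus hairpin 1, was -0.74 (edgeR adjusted p = 0.01147). Of 8 catenin relatives 6 were tested, 1 was called lower and 0 higher. This was JUP, plakoglobin, which can take the place of beta-catenin at the cadherin tail and also joins desmosomes. Its control level of 341 CPM compared with 75.2 CPM for hairpin 1 and 45.8 CPM for hairpin 3 (pooled log2 fold change -2.49, SE 0.231, edgeR adjusted p = 5.965e-06). Thus, plakoglobin fell where beta-catenin did not.

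Nectins, a second adhesion system of adherens junctions, and their partners gave 1 called higher and 3 lower of 9 tested. NECTIN4 fell by 5.91 (SE 0.311), PLEKHA7, which ties p120-catenin to microtubules, by 4.62 (SE 0.286), and the nectin partner AFDN by 1.11 (SE 0.127), whereas NECTIN3 rose by 1.26 (SE 0.133). Of 11 actin linkers of junctions 1 was called, MYO6, a myosin that supports cadherin contacts, which fell by 1.63 (SE 0.111). Of 13 genes of cadherin processing and turnover 1 was called, the protease ADAM9, which fell by 1.33 (SE 0.0935). These 2 shares are under that of all tested genes. The 10 tested genes of beta-catenin degradation, among them APC, AXIN1 and GSK3B, had a median of 0, and 0 of them were called by edgeR or DESeq2. With an unadjusted p under 0.05 there was 1, GSK3A at -0.28.

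Beta-catenin's nuclear partners and target genes were mixed. Of 10 partners 1 was called higher and 0 lower. LEF1, a factor that binds beta-catenin on DNA, rose by 1.27 (SE 0.226), with a control level of 2.72 CPM and hairpin levels of 6.62 and 6.53 CPM. Of 15 listed target genes 9 were tested, 2 were called higher and 3 lower (median 0.21). AXIN2, a feedback inhibitor of the pathway, rose by 2.10 (SE 0.242) from 1.17 CPM in control, and SP5 by 1.5 (SE 0.219) from 1.13 CPM. MMP7, a matrix protease, fell by 3.84 (SE 0.466) and TNFRSF19 by 1.10 (SE 0.175). Hence the list had no common direction.

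**Figure D5:**
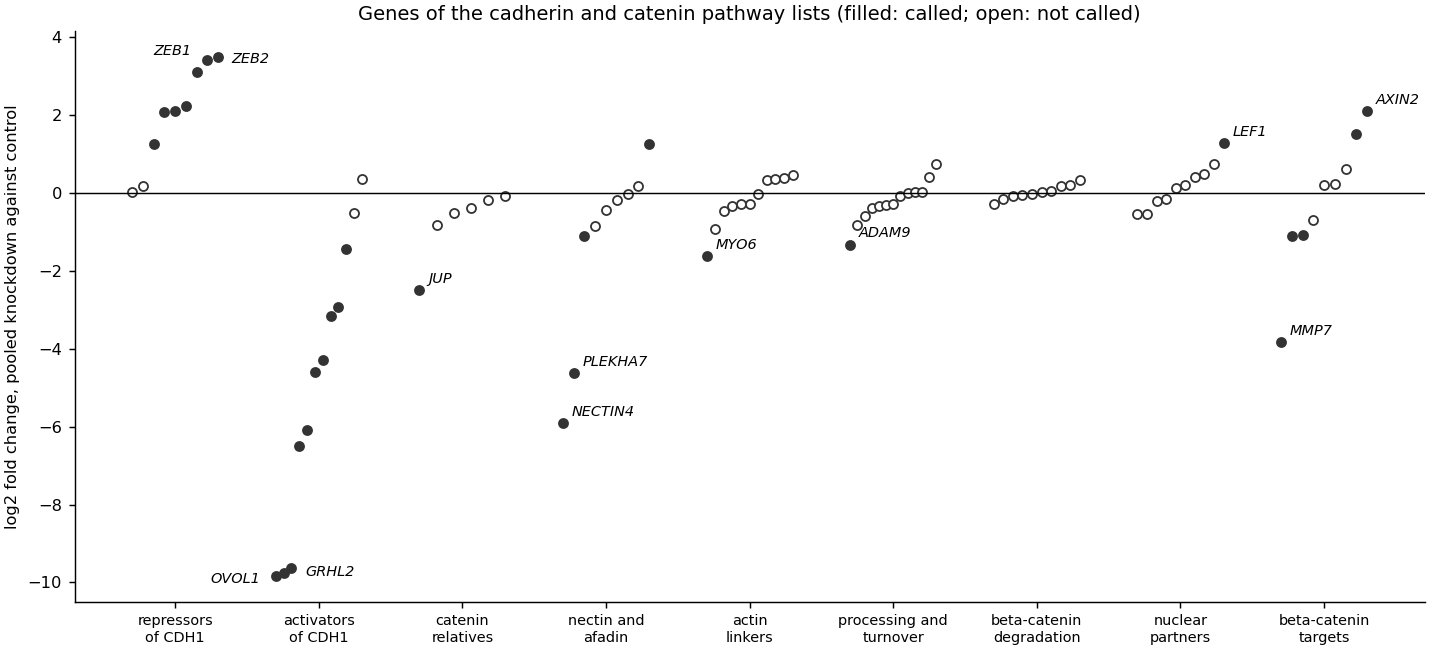
Pooled log2 fold change (6 knockdown against 3 control libraries) of each tested gene in 9 lists, ordered by value within a list (filled: called, open: not called). Repressors of CDH1 lie between 0.01 and 3.48, 10 of 12 activators are called lower, and beta-catenin degradation genes lie near 0.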

How the data were processed

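The values were raw read counts per gene, deposited by the authors for 9 libraries. Per the labels, poly(A) RNA was made into non-directional libraries, and the submitters' processing notes name HISAT2 2.0.5, featureCounts 1.5.0-p3 and hg38. All 58676 gene identifiers occur in GENCODE 29, 95.2% at the same position. 0 count columns were left unused.

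Genes were filtered with filterByExpr of edgeR 4.0.16 (R 4.3.3, minimum count 10, minimum total count 15), scaled with TMM and tested with glmQLFTest, the quasi-likelihood test of edgeR, adjusting by Benjamini-Hochberg over all 15975 tested genes, which held 99.89% of the counts. Calls needed an adjusted p under 0.05 and a log2 change of 1 or more either way. Each hairpin was fitted in a model of 3 groups. The pooled comparison, which follows the study's grouping, joined both hairpins. Library totals, 16850854 to 23890191 counts, set the precision of low genes. CPM was computed here from the counts, and neighbour medians and library plots used log2(CPM + 0.5). Standard errors were derived from the F statistic of each fold change. The scripts were tested on simulated data.

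The genes, the gene lists and the rule for naming genes (all 10, MPZL3, at most 4 called genes per list by size of change, and 10 fixed names) were chosen with earlier results of these data known. KRT7, KRT8, KRT18, PAX8, GSK3A, KDR, TFAP2C, APC, AXIN1, GSK3B, DCN, COL1A1, ERG, EMCN and WT1 were named beside the rule. So were EPCAM, KRT19, MUC16, CLDN3, CLDN4, PDPN and FAP. The alternatives were no filter, a filter at 1 CPM on average, size factors of DESeq2, scaling by library totals, the DESeq2 1.42.0 Wald test, the replicate letter as a block, only the groups compared, other thresholds, and each library left out.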

Additional observations from a re-analysis of the deposited data

Results flagged for a closer look

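4 of the 9 tested genes differed between the hairpins by the direct test of hairpin 3 against hairpin 1 (edgeR, adjusted p under 0.05), where 11.6% of all tested genes did so. The log2 differences were -7.16 for CDH6, 0.91 for CDH4, -0.50 for CDH2 and -0.61 for CDH3, whose adjusted p reached 0.133 under the alternatives. Of the 4, CDH6 alone also passed the fold threshold as reported, and CDH4 did so without hairpin 1 replicate A. CDH6 and CDH4 lie among genes that differed between the hairpins in the same direction, with neighbour medians of -0.75 and 0.31. The neighbours of CDH2 and CDH3 had medians of -0.07 and -0.02. The part of these regional differences in the cadherin values was not tested. No group was examined for outlying libraries, since each held 3.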

How the results depend on the processing

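Of 573 refitted values of the 9 tested genes, 549 kept their direction and their side of the thresholds. The number of the 9 called between hairpin 3 and hairpin 1 was 1 as reported, 4 with no fold threshold, and 1 to 2 with each library left out in turn. None of the values that turned was called as reported. In the pooled comparison, CDH4 was -0.03 when all 3 groups were fitted and -0.09 to 0.15 with 1 library left out, CTNNA1 was -0.03 to 0.03 and SNAI2 -0.04 to 0.08 with 1 library left out, and SNAI2 with hairpin 1 was -0.15 to 0.05. Between the hairpins, CTNNB1 was 0.01 with library totals and -0.1 to 0.04 with 1 library left out, LEF1 was 0 with library totals and -0.25 to 0.19, CDH1 was -1.03 to 1.01 and CTNND2 -3.67 to 0. The cause was not tested.

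Same-letter libraries of different groups deviated together with correlations of 0.0642 to 0.678, 8 of 9 over 0.1, against -0.672 to 0.327 for different letters. The A and C libraries correlated best with their own letter and the B libraries did not in each case. Since 1 pair was not over 0.1 and the labels name nothing that a letter shares, the letters were not taken to pair the libraries, although A and C deviated together. With the replicate block, 5 instead of 6 genes were called in the pooled comparison, since CDH6 was lost (edgeR adjusted p = 0.05234), and 6, 5 and 1 in the others, as reported. Counts for the 10 lists, recomputed under alternatives chosen after seeing the data, stayed within 1.5 times in 159 of 160 cases, the exception being 2 actin linkers instead of 1 without hairpin 3 replicate A. Genes at 0 to 3 counts, namely CDH6, CTNND2 and CDH11, are limited by depth. So is CDH1 in the knockdown libraries, at 1 to 4 counts with hairpin 1 and 0 to 6 with hairpin 3.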
